A study of Mus musculus with 10 samples.

Results

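The comparison described here set MC3T3 cells that had received the EZH2 inhibitor GSK126 against vehicle-treated cells on day 10 of osteogenic culture, 4 days after the compound had been taken away. It holds 2 of the 10 samples of the series, 1 RNA library a side, and covers every gene of the deposited count table (23358 rows). MC3T3 is an established mouse calvarial pre-osteoblast line. All cultures grew in osteogenic medium, in which ascorbic acid and beta glycerol phosphate drive osteoblast maturation. Treated cells received 5 µM GSK126 and control cells vehicle (DMSO), at the start and once more on day 3, and both were removed on day 6. Further RNA libraries date from days 3 and 6, 1 for each treatment, which makes 6 in all. H3K27me3 chromatin and input DNA were sequenced 24 hours after the first dose, with 1 library of each per treatment. The libraries of days 3 and 6 serve here to say what persisted on day 10, what was gone and what was new.

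EZH2 is the catalytic subunit of Polycomb repressive complex 2 (PRC2), which methylates lysine 27 of histone H3, and genes that carry the trimethylated mark (H3K27me3) are as a rule silent or weakly transcribed. GSK126 competes with the methyl donor at the active site of the enzyme, and the mark is then diluted as cells divide. In osteoblast cultures, matrix and mineralization genes such as Ibsp (bone sialoprotein) and Bglap (osteocalcin) come up late, after the transcription factors Runx2 and Sp7, while proliferation slows. Since every treated culture lost the compound on day 6, its removal and the time in culture cannot be told apart.

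With 1 library a side there is no replicate error, and the difference on day 10 has no replicate check. A level is given in CPM, the share of a gene in the library's counts, after scaling by TMM, a method that aligns the bulk of genes between libraries. A difference is given as the log2 ratio of GSK126 to vehicle, followed where useful by an exact binomial 95% interval on sequenced fragments, which covers counting error only. A gene was counted as higher or lower when its ratio was at least 2-fold, among genes with a mean of at least 1 CPM over the 2 libraries. The day 10 libraries held 98285172 counts with GSK126 and 97291878 with vehicle, where the 6 libraries ranged between 97291878 and 111537936, and the ribosomal precursor Rn45s took 7.47% and 7.24% of them. In a bulk culture, fewer cells of a type and less RNA per cell cannot be told apart. The osteoblast genes Runx2, Sp7, Alpl, Bglap, Ibsp and Col1a1 were all present on day 10 in both libraries, with the lowest, Alpl, at 61.97 CPM with GSK126 and 17.3 CPM with vehicle. Of 9 skeletal muscle markers 0 reached the CPM limit, and the 10 blood cell markers summed to 17.7 CPM with GSK126 and 24.2 CPM with vehicle.

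Several rows stood apart in single libraries. Accn1, an ion channel gene whose row spans 2 smaller transcripts, had 139.6 CPM in the GSK126 library of day 10 and 0 counts in the other 5 libraries, which is at least 2251-fold over the floor of 3 fragments in the vehicle library. AB124611 had 61.99 CPM in the same library, against at most 2.69 CPM elsewhere. Mir2137, a microRNA row inside Zfp185, had 467 CPM in the vehicle library of day 10 and at most 0.0425 CPM elsewhere. Other rows jumped between days. Sap30l, a relative of a histone deacetylase complex subunit, had 21.6, 26.4 and 282 CPM with GSK126 on days 3, 6 and 10, against 26.5, 598 and 29.03 CPM with vehicle. Tmem158, a membrane protein gene, had 513, 1.49 and 472 CPM with GSK126, against 1.25, 1.79 and 23.2 CPM with vehicle. These rows take extreme places in the day 10 ranking (Sap30l 3.28, Tmem158 4.35, AB124611 4.52), and without the 3 that exceed every other library 10-fold the day 10 counts would be 315 and 255 instead of 317 and 256.

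Promoters of genes that carry the main results are shown first, each as the 250 bases before the RefSeq start site (build GRCm38.p6, written 5′ to 3′ on the strand of the gene). Capitals mark every match to the short motifs searched on both strands, namely the RUNX core ACCACA, the CCAAT box, the cell cycle homology region (CHR) TTTGAA of mitotic genes, and the interferon response element (ISRE), which is GAAA followed after any 2 bases by a second GAAA. The E2F letters TTTGGCGC and TTTCCCGC were searched as well and are in none of the 5. Bglap and Ibsp stand for the bone matrix genes, Ccnb1 and Kif11 for the mitosis genes, and Ifit3, picked after its values were seen, for the interferon-stimulated genes.
Bglap, chr3:88384467-88384716, minus strand: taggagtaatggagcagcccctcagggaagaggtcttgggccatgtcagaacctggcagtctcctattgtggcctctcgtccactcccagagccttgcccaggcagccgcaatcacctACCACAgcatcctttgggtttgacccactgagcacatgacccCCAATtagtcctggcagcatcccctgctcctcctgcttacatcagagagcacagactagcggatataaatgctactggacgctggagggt
Ibsp, chr5:104299037-104299286, plus strand: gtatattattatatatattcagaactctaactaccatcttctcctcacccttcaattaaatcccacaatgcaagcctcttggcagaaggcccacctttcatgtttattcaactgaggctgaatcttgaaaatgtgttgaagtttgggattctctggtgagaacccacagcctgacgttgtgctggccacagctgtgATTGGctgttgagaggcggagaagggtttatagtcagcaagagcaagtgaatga
Ccnb1, chr13:100786487-100786736, minus strand: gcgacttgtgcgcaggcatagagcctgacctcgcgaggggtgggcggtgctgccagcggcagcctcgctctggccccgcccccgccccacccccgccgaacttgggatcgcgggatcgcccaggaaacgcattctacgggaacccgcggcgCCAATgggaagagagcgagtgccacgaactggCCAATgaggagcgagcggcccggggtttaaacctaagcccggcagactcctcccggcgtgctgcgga
Kif11, chr19:37376132-37376381, plus strand: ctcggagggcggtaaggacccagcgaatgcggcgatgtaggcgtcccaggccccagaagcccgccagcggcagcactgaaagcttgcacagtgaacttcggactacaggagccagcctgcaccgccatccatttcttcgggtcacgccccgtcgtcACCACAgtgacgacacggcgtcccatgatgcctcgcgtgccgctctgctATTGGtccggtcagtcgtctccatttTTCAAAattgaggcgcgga
Ifit3, chr19:34583279-34583528, plus strand: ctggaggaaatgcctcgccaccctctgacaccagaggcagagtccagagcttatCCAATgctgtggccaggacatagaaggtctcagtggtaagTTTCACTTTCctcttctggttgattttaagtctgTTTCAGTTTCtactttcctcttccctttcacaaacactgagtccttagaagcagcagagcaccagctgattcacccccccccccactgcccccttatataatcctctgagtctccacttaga
In Bglap the RUNX letters lie 132 bases before the start site and CCAAT at 90 bases, and in Ibsp the reverse of CCAAT, read as ATTGG, lies at 54 bases. Ccnb1 had CCAAT at 99 and 67 bases. Kif11 had RUNX letters at 94 bases, ATTGG at 45 bases and the reverse of CHR at 19 bases, so the RUNX letters were not particular to the bone genes among these 5. Ifit3 had CCAAT at 196 bases and ISRE matches at 156 and 122 bases. The promoters of Oasl2 and Ifi44, interferon-stimulated genes named below, held no ISRE match. Among all 32851 promoters of the RefSeq table searched in the same window, 14.0% held RUNX, 33.8% CCAAT, 15.99% CHR and 2.98% ISRE. A match describes the letters, and binding was not measured.

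Of 11762 genes tested on day 10, 317 were at least 2-fold higher with GSK126 (2.7%) and 256 were at least 2-fold lower (2.18%). At 4-fold or more there were 96 higher and 29 lower genes. The median ratio of all tested genes was -0.01, and 82.5% of genes lay within 1.41-fold of equal. The counting intervals of all 317 and all 256 genes excluded 0, as did those of 67.5% of all tested genes at this depth. On day 6, while the compound was present, 398 genes were higher (3.4% of 11707) and 241 lower (2.06%), and on day 3 the numbers were 146 (1.26% of 11622) and 13 (0.112%). Higher genes outnumbered lower ones on each day, but on day 10 scaling by library size alone gave 282 higher and 286 lower. Over all genes, which are no independent replicates, the ratios of day 10 had a Pearson correlation of 0.58 with those of day 6 and 0.47 with those of day 3.

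Genes were then classed by day among 11743 with a mean of at least 1 CPM over the 4 libraries of days 6 and 10. A difference persisted when it was at least 2-fold the same way on days 6 and 10. It was gone when it was at least 2-fold on day 6 and under 0.5 (log2) that way on day 10, and new when it was at least 2-fold on day 10 and under 0.5 that way on both earlier days. Of the 409 genes higher on day 6, 219 persisted (53.5% of the 409, 1.86% of all), 92 lay between the limits, 96 were gone (23.5% of the 409, 0.818% of all) and 2 had turned to at least 2-fold lower (0.017% of all). Of the 241 genes lower on day 6, 110 persisted (45.6% of the 241, 0.937% of all), 36 lay between the limits, 85 were gone (35.3% of the 241, 0.724% of all) and 10 had turned to at least 2-fold higher (0.0852% of all; 4 genes when scaled by library size). New on day 10 were 47 higher genes (0.4% of all) and 57 lower genes (0.485%). Among persisting genes, 82 of the 219 higher and 68 of the 110 lower ones stood further from equal on day 10 than on day 6. On all 3 days, 116 genes passed 2-fold upward and 7 passed it downward. The ratios themselves define these classes, so their counts and medians are descriptions with no test.

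**Figure D1:**
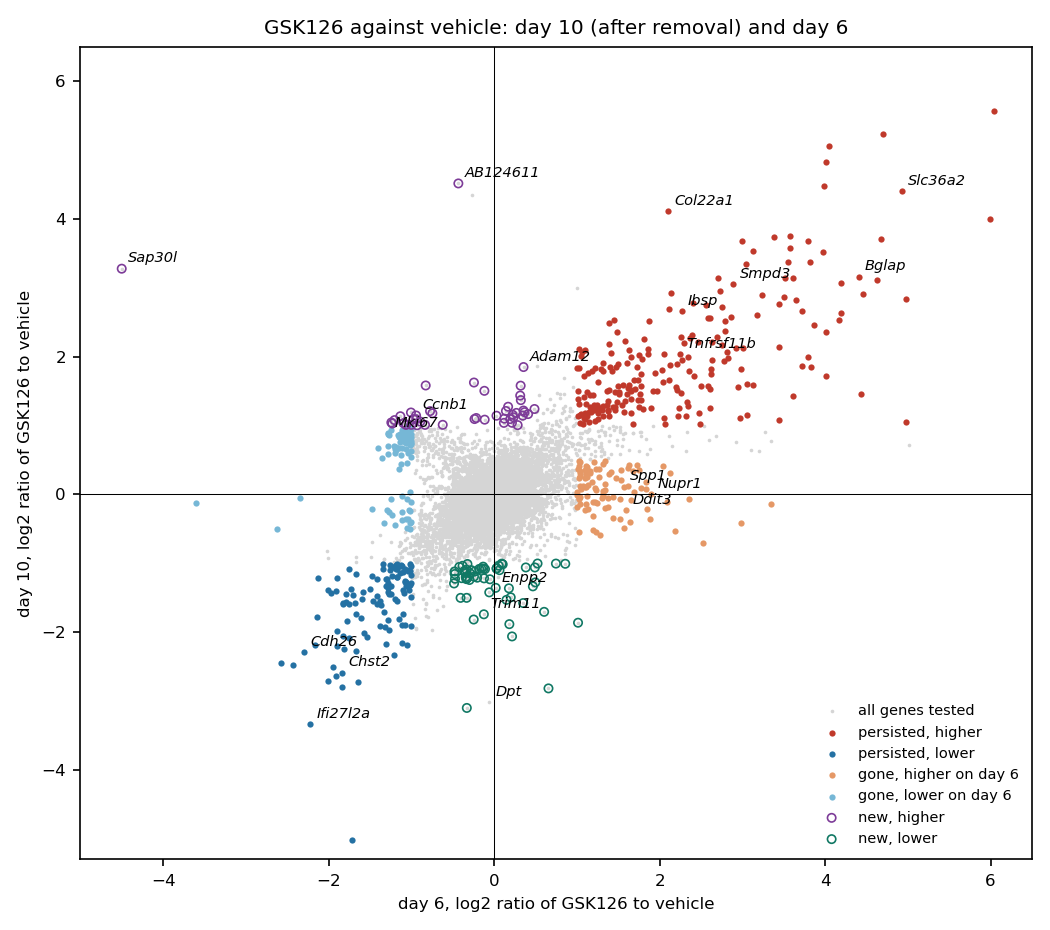
Each point is 1 gene, with its log2 ratio of GSK126 to vehicle on day 6 (x axis) and on day 10 (y axis), coloured by class. Open rings mark new differences and can overlie other classes, since a gene that was lower on day 6 and at least 2-fold higher on day 10 also counts as new, and 5 genes lie outside the axes. The 219 persisting higher genes fill the upper right and the 110 persisting lower ones the lower left, and Mki67 and Ccnb1 lie at upper left, lower on day 6 and higher on day 10.

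Bone matrix and mineralization genes held their day 6 difference. Of 18 tested members, 9 were at least 2-fold higher on day 10 (background 2.7%) and 1, the stromal matrix gene Postn, was at least 2-fold lower (background 2.18%). The list median was 0.52, 1.19 and 0.97 on days 3, 6 and 10, against -0.01 for all tested genes on day 10. Ibsp had 532, 1968 and 3472 CPM with GSK126 on days 3, 6 and 10, against 177, 409 and 547 CPM with vehicle. It was higher at each later day in both treatments, and its ratio of 2.67 on day 10 (2.65 to 2.69) was above the 2.27 of day 6. Smpd3, a sphingomyelinase needed for mineralization, had 118, 410.3 and 553 CPM with GSK126, against 31.6, 55.3 and 66.4 CPM with vehicle, and its day 10 ratio was 3.06 (3.01 to 3.11).

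Bglap had 2.83, 76.5 and 197 CPM with GSK126 on days 3, 6 and 10, against 0.695, 3.59 and 21.98 CPM with vehicle. Both cultures gained Bglap between days 6 and 10, and its ratio was smaller on day 10 (3.16, 3.07 to 3.26) than on day 6 (4.41). Bglap and its near-identical neighbour Bglap2 may share reads, so both values are uncertain, and Bglap2 had a day 10 ratio of 2.66. Ifitm5, an osteoblast membrane protein gene that is mutated in a form of brittle bone disease, had 119 CPM with GSK126 and 13.4 CPM with vehicle on day 10, a ratio of 3.14 after 3.61 on day 6. Phospho1, a phosphatase that frees phosphate for mineral and whose row overlaps Abi3, had 128 CPM with GSK126 and 19.4 CPM with vehicle (2.72). Alpl, the alkaline phosphatase that removes the mineralization inhibitor pyrophosphate, widened its gap instead, with ratios of 0.46, 1.004 and 1.84. It had 14.99, 30.1 and 61.97 CPM with GSK126, against 10.9, 14.997 and 17.3 CPM with vehicle. The carbonic anhydrase gene Car3 stood at 85.7 CPM with GSK126 and 11.5 CPM with vehicle (2.89), and Tnc, which encodes the matrix glycoprotein tenascin C, at 1.36.

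Spp1 (osteopontin), a matrix phosphoprotein gene of the same cluster as Ibsp, did not persist. It had 277, 941 and 1326 CPM with GSK126 on days 3, 6 and 10, against 279, 317 and 1228 CPM with vehicle. Its ratio was 1.57 on day 6 and 0.11 on day 10 (0.09 to 0.13), and over those days the larger gain was in the vehicle culture. Col1a1, the main bone collagen chain, had 32927 CPM with GSK126 and 23762 CPM with vehicle on day 10, a ratio of 0.47 after 0.09 on day 6. Ostn, the gene of the secreted peptide osteocrin, stood at 0.175, 41.5 and 9.68 CPM with GSK126, against 0, 0.117 and 0 CPM with vehicle. Set against the floor of 3 fragments in the vehicle library it was at least 156-fold higher on day 10, at a lower level with GSK126 than on day 6.

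**Figure D2:**
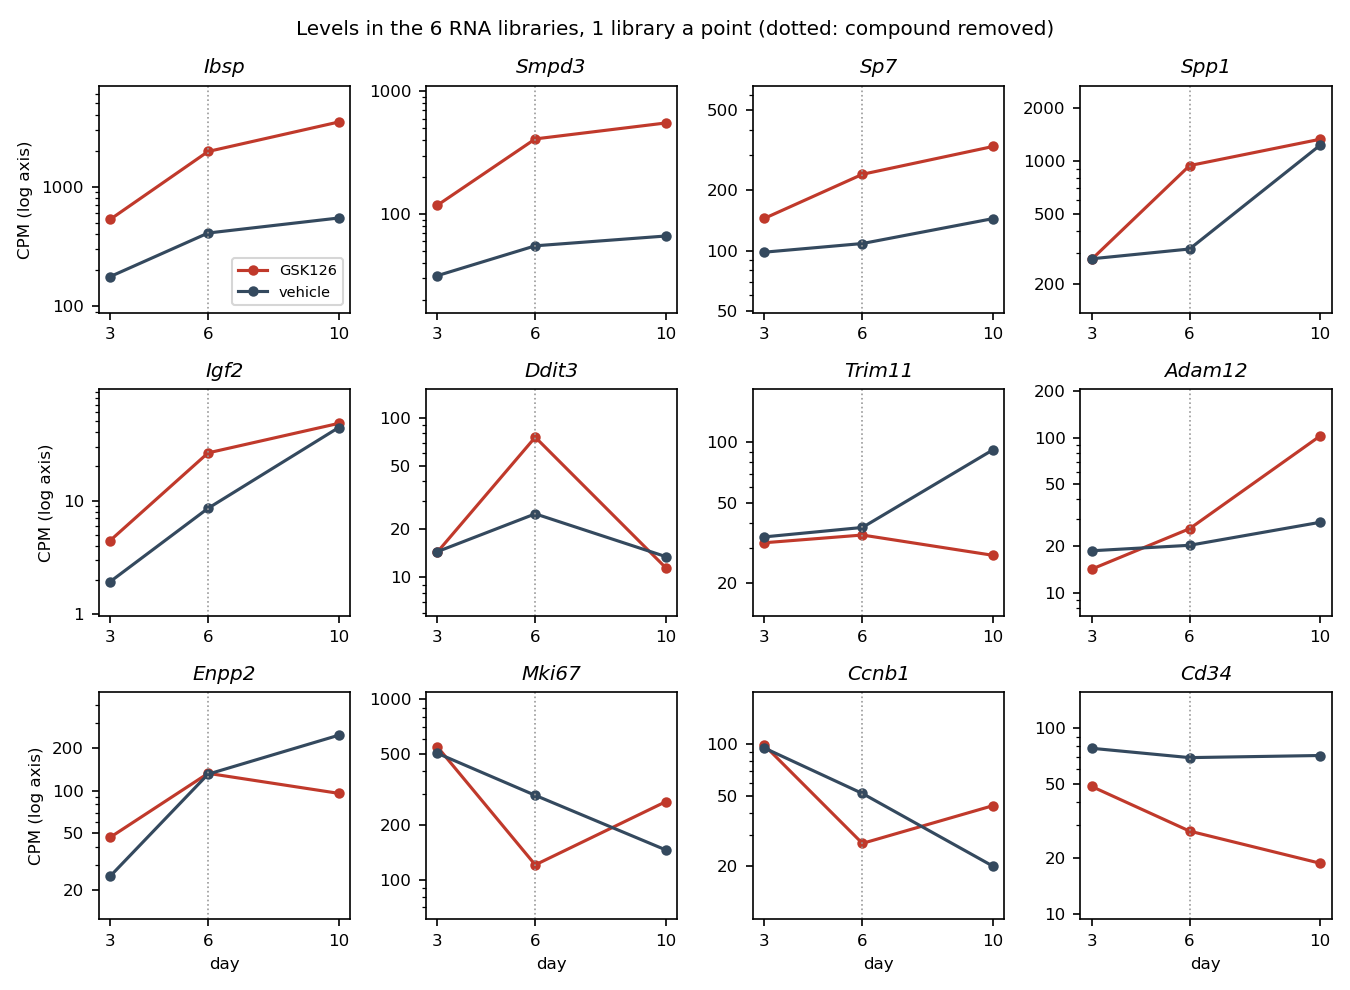
Levels in CPM (log axis) of 12 genes on days 3, 6 and 10, with GSK126 in red and vehicle in dark blue. Each point is 1 library and the dotted line marks removal on day 6. Ibsp, Smpd3 and Sp7 keep a gap to day 10, Spp1, Igf2 and Ddit3 close it, Trim11, Adam12 and Enpp2 open one after day 6, and Mki67 and Ccnb1 cross.

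Transcription factors of the lineage differed less than the matrix genes. Of 14 tested, 4 were at least 2-fold higher on day 10 (background 2.7%) and 0 lower (background 2.18%), with a median of 0.36. Sp7 (osterix), which acts downstream of Runx2, had 145, 241 and 331 CPM with GSK126 on days 3, 6 and 10, against 98.5, 109 and 145 CPM with vehicle. Its ratio was 1.19 on day 10 (1.15 to 1.23) after 1.14 on day 6, and the homeobox factors Dlx3 and Dlx5 stood at 1.18 and 1.14. Runx2, whose row overlaps Supt3h, had 362 CPM with GSK126 and 237 CPM with vehicle on day 10 (0.61, 0.58 to 0.65). Zfp521, which holds back Runx2 in mouse osteoblasts, stood at the low end with -0.77. Of 7 tested osteocyte genes 0 were past 2-fold in either direction (background 2.7% higher and 2.18% lower). Dmp1, a matrix phosphoprotein of early osteocytes, was at 0.72 on day 6 and -0.15 on day 10.

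Some receptors and secreted regulators of bone kept their differences. Pth1r, the receptor of parathyroid hormone, had 204, 462 and 552 CPM with GSK126 on days 3, 6 and 10, against 114, 157 and 184 CPM with vehicle. Its day 10 ratio of 1.58 (1.55 to 1.62) was close to the 1.56 of day 6. Tnfrsf11b (osteoprotegerin), the decoy receptor for the osteoclast signal RANKL, had 671 CPM with GSK126 and 164 CPM with vehicle on day 10 (2.04, 2.001 to 2.07), and Tnfsf11, which encodes RANKL, had 0 counts in all 6 libraries. Of 8 tested osteoclast coupling factors, 5 were above 0 on day 6 (median 0.51) and 3 on day 10 (median -0.16). On day 10, 3 were at least 2-fold higher (background 2.7%) and 2 lower (background 2.18%), and each of the 5 had been at least 2-fold the same way on day 6. Besides Tnfrsf11b they were the chemokine Cxcl12 (1.35), the semaphorin Sema4d (1.03), the monocyte chemokine Ccl2 (-1.99) and Il34, a ligand of the CSF1 receptor (-1.28). Csf1, the macrophage growth factor, and Efnb2, an ephrin, were above 0 on day 6 (0.66 and 0.35) and below 0 on day 10 (-0.04 and -0.29). Ccl2 was scarce, with 0.594 CPM with GSK126 and 2.42 CPM with vehicle.

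Insulin-like growth factor genes went other ways than Pth1r. Of the 15 parathyroid hormone and IGF genes tested, Pth1r was the 1 at least 2-fold higher on day 10 (background 2.7%). Igfbp5 and Igfbp7, which bind IGFs outside the cell, were the 2 at least 2-fold lower (background 2.18%). Igfbp5 had 15.1 CPM with GSK126 and 41.1 CPM with vehicle (-1.45), and Igfbp7, whose row overlaps Polr2b, had 46.7 CPM with GSK126 and 101 CPM with vehicle (-1.11). Igf1 had 57.8, 158 and 125 CPM with GSK126 on days 3, 6 and 10, against 80.8, 147 and 206 CPM with vehicle. Its ratio was 0.11 on day 6 and -0.72 on day 10 (-0.77 to -0.68), with a gain in the vehicle culture alone. Igf2, picked after its values were seen, closed its gap as Spp1 did, with 26.4 CPM with GSK126 and 8.56 CPM with vehicle on day 6 and 48.002 CPM with GSK126 and 44.1 CPM with vehicle on day 10.

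Genes of the Wnt pathway split. Wif1, a secreted Wnt antagonist, had 7.15, 43.2 and 37.4 CPM with GSK126 on days 3, 6 and 10, against 1.53, 6.08 and 9.47 CPM with vehicle. Its ratio was 1.98 on day 10 (1.83 to 2.13) after 2.82 on day 6. The other 3 tested antagonists were below 0 on day 10, namely Dkk2 (-1.81), Sfrp2 (-0.99) and Dkk3 (-0.53). Of 8 tested Wnt feedback genes, 1 was at least 2-fold higher (background 2.7%) and 1 lower (background 2.18%). The higher gene was the transcription factor Tcf7 (204 CPM with GSK126 and 67.6 CPM with vehicle, 1.59). The lower gene was Nkd2, which binds Dishevelled (3.29 CPM with GSK126 and 9.24 CPM with vehicle, -1.48). Lef1, a factor related to Tcf7, was at 0.20, -0.06 and -0.65 on the 3 days. Among 20 BMP and TGF-beta genes the median was 0.07. Bambi, a pseudoreceptor that dampens these signals, was the 1 member past 2-fold (background 2.7% higher and 2.18% lower). It had 15.1 CPM with GSK126 and 5.09 CPM with vehicle (1.56).

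Cartilage genes had a larger median on day 10 (1.02) than on days 3 and 6 (0.65 and 0.72). Of 11 tested, 6 were at least 2-fold higher (background 2.7%) and 0 lower (background 2.18%). Col11a2, a chain of a fibrillar cartilage collagen, had 13.6, 142 and 364 CPM with GSK126 on days 3, 6 and 10, against 8.49, 24.01 and 53.9 CPM with vehicle (2.75, 2.70 to 2.82). Hapln1, which links hyaluronan to proteoglycan, stood at 2.22 on day 10 after 1.58 on day 6, and the matrix gene Matn3 at 1.79. Col9a1 had 3.84 CPM with GSK126 and 0.062 CPM with vehicle on day 10, the second being 3 fragments, which puts its ratio between 4.38 and 8.24. Sox9, the master factor of chondrocytes, was below 0 throughout, with ratios of -0.15, -0.27 and -0.29. Col10a1, a marker of hypertrophic chondrocytes whose row overlaps Nt5dc1, came up in both cultures by day 10, to 3.95 CPM with GSK126 and 1.59 CPM with vehicle (1.30).

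Among 29 collagens and crosslinking enzymes, higher and lower ratios balanced, with a median of -0.02. Loxl4, a lysyl oxidase that crosslinks collagen, had 94.7, 209.6 and 324 CPM with GSK126 on days 3, 6 and 10, against 102, 95.5 and 95.4 CPM with vehicle. Its vehicle level hardly moved, and its ratio was 1.77 on day 10 after 1.13 on day 6. Col7a1, the anchoring fibril collagen, was new at 1.37, and the minor fibrillar chain Col5a3 stood at -1.59 with 76.1 CPM with GSK126 and 229 CPM with vehicle. Of 24 tested matrix proteases and their inhibitors, 3 were at least 2-fold higher (background 2.7%) and 1 lower, a share near the background of 2.18%. The protease Adamts18 had 0.175, 1.49 and 9.32 CPM with GSK126, against 0.0347, 0.039 and 0.227 CPM with vehicle (5.24, 4.50 to 6.37), and Adamts9 was new with 29.1 CPM with GSK126 and 10.8 CPM with vehicle on day 10 (1.44). Timp4, an inhibitor of matrix proteases whose row lies within Syn2, stood at 3.03 (2.26 to 4.12). It was scarce, with 2.165 CPM with GSK126 and 0.248 CPM with vehicle. The gelatinase Mmp9 stood at -1.79 with 0.488 CPM with GSK126 and 1.74 CPM with vehicle.

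Outside these lists, persisting genes with large day 10 ratios had varied roles. Slc36a2, a proton-coupled amino acid transporter, had 0.35, 8.86 and 57.7 CPM with GSK126 on days 3, 6 and 10, against 0.0174, 0.273 and 2.71 CPM with vehicle (4.40, 4.16 to 4.68). Col22a1, a collagen of tissue junctions, had 1.63, 8.04 and 33.99 CPM with GSK126, against 1.51, 1.85 and 1.94 CPM with vehicle. Its vehicle level stayed low while its ratio of 2.11 on day 6 was 4.11 on day 10. The Rac exchange factor Prex1 stood at 3.58 on day 6 and 3.58 on day 10. Prkaa2, a catalytic subunit of the energy sensor AMPK, was at 3.53 with 23.9 CPM with GSK126 and 2.05 CPM with vehicle, and the sphingosine phosphate exporter Spns2 at 3.14 with 75.4 CPM with GSK126 and 8.54 CPM with vehicle. The sodium-calcium exchanger Slc8a3 stood at 3.37, the PDZ domain gene Pdzd2 at 3.38 and Ncf1, an NADPH oxidase subunit, at 3.14.

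Most tested stromal and interferon genes were below 0 on day 10. All 9 tested fibroblast markers were below 0 on day 10 (background 51.1%), with medians of -0.49, -1.08 and -1.20 on the 3 days, and 6 of the 9 were at least 2-fold lower (background 2.18%). Cd34, a surface glycoprotein of stromal progenitors whose row overlaps Gm16897, had 48.5, 27.9 and 18.7 CPM with GSK126 on days 3, 6 and 10, against 77.9, 69.4 and 71.2 CPM with vehicle. Its level was lower at each later day with GSK126 and flat after day 6 with vehicle, and its ratio was -0.68, -1.32 and -1.93. Scara5, a ferritin receptor, had 51.7 CPM with GSK126 and 119 CPM with vehicle on day 10 (-1.20), and Mfap5, a microfibril protein, 19.2 CPM with GSK126 and 47.2 CPM with vehicle (-1.30). Dpt, which encodes dermatopontin, was nearly level on day 6 (5.5 CPM with GSK126 and 5.73 CPM with vehicle) and apart on day 10 (1.78 CPM with GSK126 and 14.6 CPM with vehicle, -3.02). Clec3b (tetranectin) had 0.0849 CPM with GSK126 and 3.37 CPM with vehicle (-5.02, -7.20 to -3.93). The 12 fibroblast markers together stood at 644, 434 and 426 CPM with GSK126, against 908, 1014 and 835 CPM with vehicle, and their part in the other differences was not tested. Of 7 small leucine-rich proteoglycans, 6 were below 0 (background 51.1%). Lum (lumican), which orders collagen fibrils, was the 1 past 2-fold (background 2.18% lower), with 1050.3 CPM with GSK126 and 2349 CPM with vehicle (-1.16).

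Among interferon-stimulated genes, 25 of 26 tested were below 0 on day 10 (background 51.1%) and 8 were at least 2-fold lower (background 2.18%). The medians were -0.04, -0.65 and -0.81 on days 3, 6 and 10. Ifi27l2a, an interferon-inducible mitochondrial protein gene, had 21.1, 3.26 and 0.934 CPM with GSK126 on days 3, 6 and 10, against 21.1, 15.3 and 9.59 CPM with vehicle (-3.33, -3.84 to -2.91). The treatments were level on day 3 and apart on both later days. Oasl2, of the oligoadenylate synthetase family, stood at -2.28, Rtp4 at -1.42 and Ifi44 at -1.21, with Oasl2 at 0.531 CPM with GSK126 and 2.65 CPM with vehicle. Ifit3, shown above for its ISRE letters, had 1.27 CPM with GSK126 and 2.85 CPM with vehicle (-1.15). Xaf1, which binds an inhibitor of apoptosis, was the exception, with 16.8, 57.2 and 47.3 CPM with GSK126, against 12.1, 12.5 and 16.1 CPM with vehicle (1.55). Of the 26 genes, 21 had a promoter in the RefSeq table, 7 of these (33.3%) held an ISRE match and 14 held none, where 2.98% of all promoters held one.

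Other persisting lower genes belong to sulfation, signalling and adhesion. Chst2, a sulfotransferase, had 27.1, 22.1 and 8.28 CPM with GSK126 on days 3, 6 and 10, against 43, 79.1 and 49.96 CPM with vehicle (-2.59). The neurotrophin receptor gene Ngfr was higher with GSK126 on day 3 (1.75) and lower on days 6 and 10 (-1.21 and -2.34). The cadherin Cdh26 stood at -2.29 on day 6 and -2.29 on day 10, Sparcl1, a relative of osteonectin, at -2.09 on day 10, and Cdc42ep2, an effector of the GTPase CDC42, at -2.01.

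**Figure D3:**
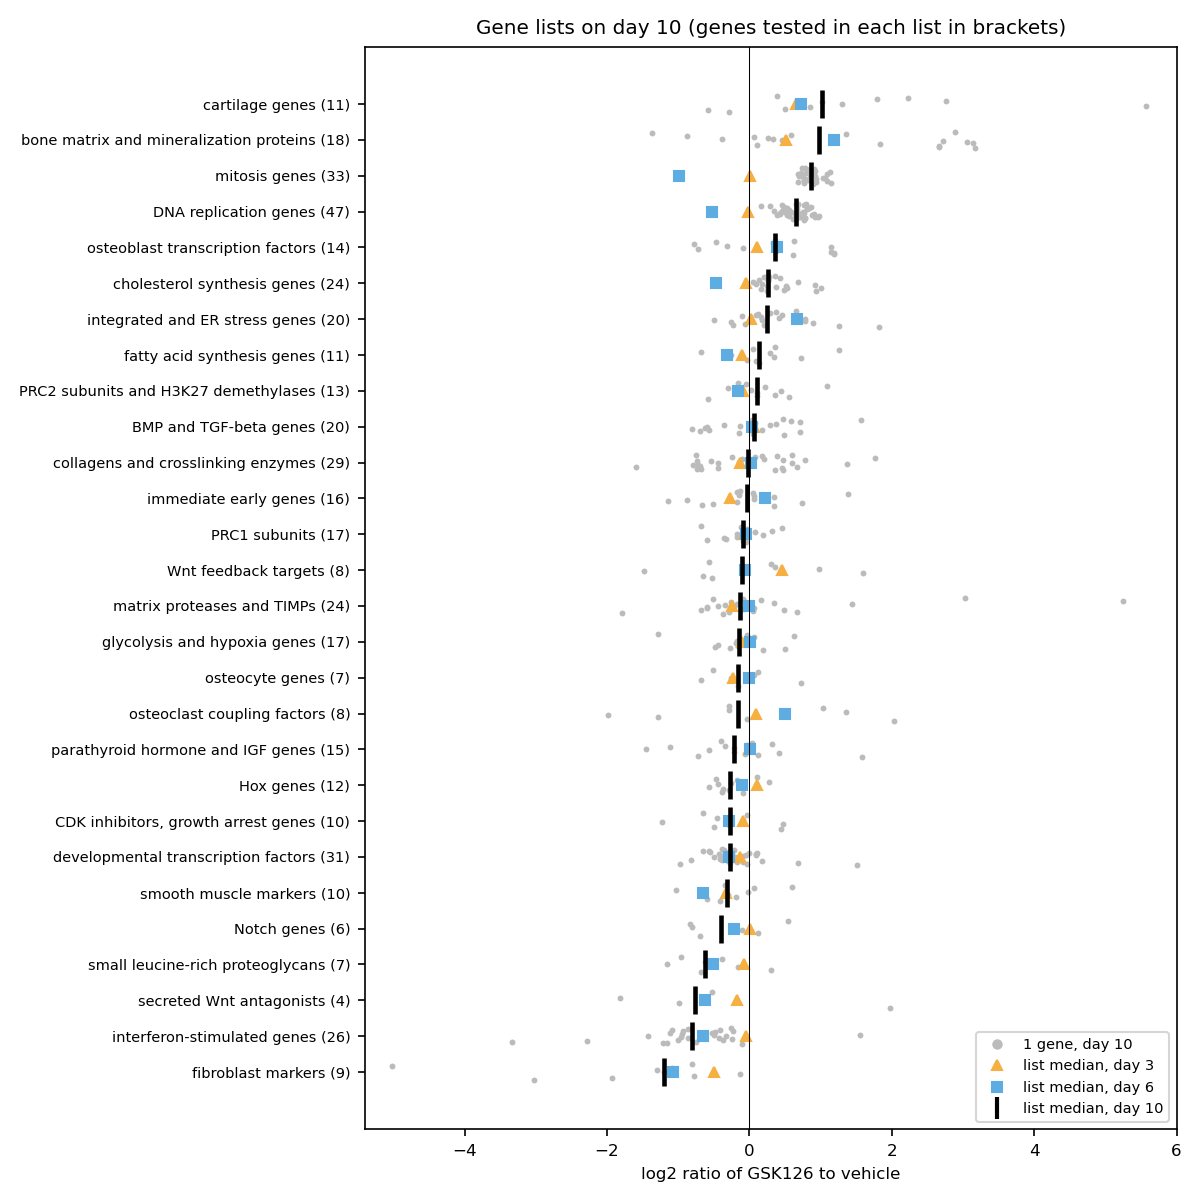
Log2 ratio of GSK126 to vehicle for gene lists with at least 4 tested genes, ordered by their day 10 median. Grey points are single genes on day 10, and triangles, squares and black bars are list medians on days 3, 6 and 10. Bone matrix and cartilage lists are above 0 on all days, the fibroblast list is below 0 on all days, and the mitosis, DNA replication and cholesterol lists are below 0 on day 6 and above 0 on day 10.

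The higher genes that were gone by day 10 mostly came down in the treated culture. Over the 96 genes, the median change between days 6 and 10 was -1.20 (log2) in the GSK126 libraries and 0.16 in the vehicle libraries. With GSK126, 50 of the 96 were at least 2-fold lower on day 10 than on day 6 (2.07% of all genes), and with vehicle 20 were at least 2-fold higher (2.15% of all). By its definition the class holds genes whose GSK126 level came down or whose vehicle level came up. The shares of all genes are therefore no test of it. Nupr1, a stress-induced chromatin protein gene, had 26.8, 153 and 40.7 CPM with GSK126 on days 3, 6 and 10, against 21.2, 41.01 and 40.7 CPM with vehicle. Its ratio of 1.90 on day 6 was 0.00 on day 10. Egln1, the oxygen sensor that marks HIF for degradation, had 40.6, 189.5 and 72.3 CPM with GSK126, against 41.96, 53.2 and 68.4 CPM with vehicle. Gadd45a, a growth arrest gene whose row overlaps E230016M11Rik, was at 1.78 on day 6 and 0.10 on day 10, and the stress factor Atf3 at 1.75 and 0.35. In these 4 genes the GSK126 level came down. The vehicle level of Atf3 came down as well, to 1.88 CPM on day 10 after 8.09 CPM on day 6, while its GSK126 level was 2.399 CPM on day 10 after 27.2 CPM on day 6. For Spp1 and Igf2 the vehicle level came up by more than the GSK126 level.

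The lower genes that were gone moved in both cultures. Over the 85, the median change between days 6 and 10 was 1.01 with GSK126 and -0.64 with vehicle, and the median ratio on day 10 was 0.70, past equal. With GSK126, 44 of them were at least 2-fold higher on day 10 than on day 6 (3.47% of all genes), and with vehicle 21 were at least 2-fold lower (1.01% of all). The ratios of days 6 and 10 define this class too, so these shares are no test of it. Of the 33 mitosis genes, 14 are in this class, which holds 0.724% of all genes. A few others were high in the vehicle library of day 6 alone, such as Rnf220, a ubiquitin ligase gene with 198 CPM there and 34.5 CPM with GSK126 and 35.9 CPM with vehicle on day 10.

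**Figure D4:**
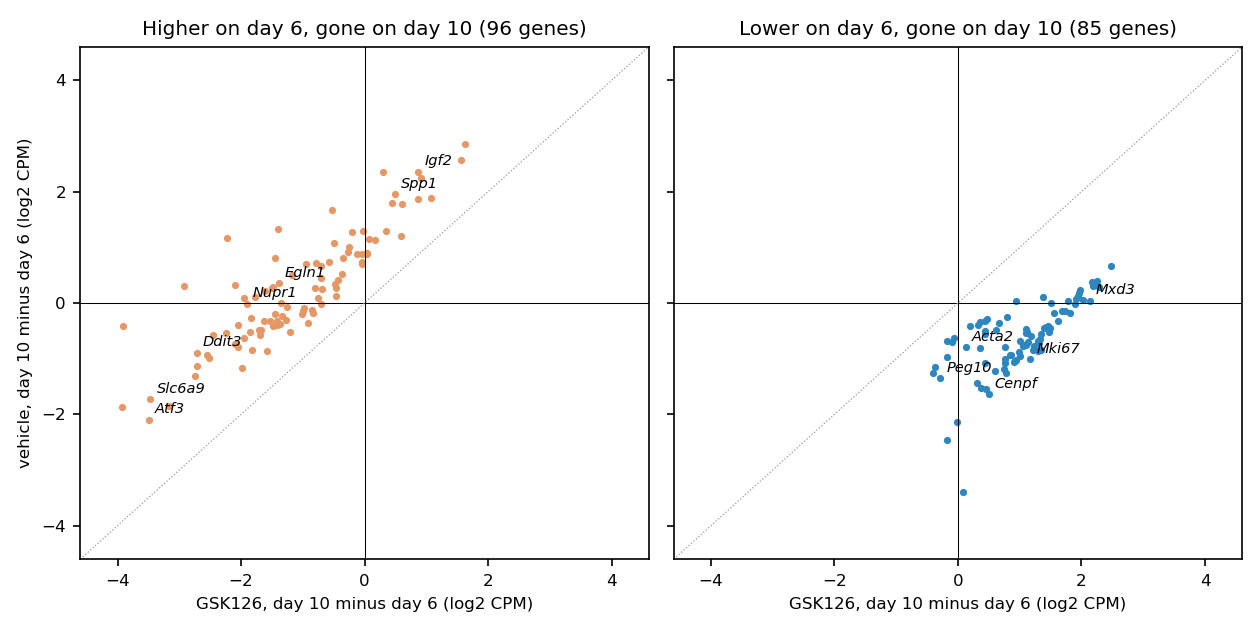
Change of each gene between days 6 and 10 (log2 CPM, day 10 minus day 6) in the GSK126 cultures (x axis) and the vehicle cultures (y axis), for the 96 higher genes (left) and the 85 lower genes (right) of day 6 that were gone on day 10. On the left the medians are -1.20 with GSK126 and 0.16 with vehicle, and on the right they are 1.01 with GSK126 and -0.64 with vehicle.

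Stress genes as a list stood high on day 6 and less so on day 10. All 20 tested members, from the integrated stress and endoplasmic reticulum stress responses, were above 0 on day 6 (background 48.4%), with a median of 0.66, and 15 were above 0 on day 10 (background 48.9%), with a median of 0.25. Ddit3 (CHOP), picked after its values were seen, had 75.7 CPM with GSK126 and 25.02 CPM with vehicle on day 6 and 11.5 CPM with GSK126 and 13.5 CPM with vehicle on day 10. Trib3, a pseudokinase gene induced by ATF4, had 6.02, 117 and 4.67 CPM with GSK126, against 2.73, 14.8 and 1.3 CPM with vehicle. It kept a ratio of 1.83 on day 10 at a far lower level than on day 6. Asns, asparagine synthetase, had 381 CPM with GSK126 and 127 CPM with vehicle on day 6 and 61.4 CPM with GSK126 and 33.1 CPM with vehicle on day 10, a ratio of 0.89 after 1.58.

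Proliferation genes changed sides. All 33 tested mitosis genes were below 0 on day 6 (background 51.6%) and above 0 on day 10, where 18.3% of all genes changed sign in that direction. Their medians were 0.01, -0.99 and 0.86 on the 3 days, and 6 were at least 2-fold higher on day 10 (background 2.7%). Summed over the list, they stood at 3803, 1053 and 2429 CPM with GSK126, against 3737, 2189 and 1349 CPM with vehicle. The vehicle culture was thus lower at each later day, while the GSK126 culture was lowest on day 6 and in between on day 10. Mki67, a marker of cycling cells, had 547, 121 and 271 CPM with GSK126, against 503, 294 and 146 CPM with vehicle, with ratios of 0.12, -1.28 and 0.89. Ccnb1, the mitotic cyclin whose promoter is shown above, had 97.8, 27.01 and 44.3 CPM with GSK126, against 94.3, 51.97 and 20.02 CPM with vehicle (1.15 on day 10, 1.04 to 1.26). Kif11, the spindle motor also shown above, was at -1.10 on day 6 and 1.03 on day 10, with 145 CPM with GSK126 and 70.8 CPM with vehicle. Of the 10 genes that turned from at least 2-fold lower to at least 2-fold higher, Cep55, Cdc25c, Kif14, Aspm, Ska1 and Kif11 act in mitosis or cytokinesis, and Sap30l is the uneven row described above.

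DNA replication genes followed with smaller ratios. All 47 tested were above 0 on day 10 (background 48.9%), between 0.17 and 0.98. On day 6, 46 of the 47 had been below 0 (background 51.6%), and 18.3% of all genes changed sign in that direction. The medians were -0.02, -0.53 and 0.65, and 0 were at least 2-fold apart on day 10 (background 2.7% higher and 2.18% lower). Summed, they stood at 3316, 1491 and 4901 CPM with GSK126, against 3348, 2098 and 3150 CPM with vehicle. With GSK126 they thus ended above their day 3 level, which the mitosis genes did not. Mcm2, a subunit of the replicative helicase, had 154, 84.2 and 289 CPM with GSK126, against 150.2, 99.4 and 169.6 CPM with vehicle (0.77, 0.73 to 0.81). Cdc6, which helps load that helicase, stood at 0.92, and Rrm2, which makes deoxyribonucleotides, at 0.91. Of 38 replication genes with a promoter in the RefSeq table, 24 (63.2%) held CCAAT and 6 (15.8%) an E2F match (TTTGGCGC or TTTCCCGC), against 33.8% and 1.30% of all promoters. The promoters of the RefSeq table include those of genes not tested here. Among 21 promoters of interferon-stimulated genes, 3 (14.3%) held an E2F match, so the match was not particular to replication genes.

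Cholesterol synthesis genes changed sides at a smaller size. Of 24 tested, 1 was above 0 on day 6 (background 48.4%) and 23 on day 10 (background 48.9%), or 22 when scaled by library size. The medians were -0.05, -0.47 and 0.26 on the 3 days. Both cultures lost these transcripts between days 6 and 10, by a median change of -0.51 with GSK126 and -1.40 with vehicle. Fdps, which makes farnesyl diphosphate, had 129 CPM with GSK126 and 68.2 CPM with vehicle on day 10.

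New differences came from either culture. Of the 47 new higher genes, 30 were at least 2-fold higher on day 10 than on day 6 with GSK126 (3.47% of all genes), and the median change was 1.36 with GSK126 and -0.21 with vehicle. Adam12, a metalloprotease of mesenchymal cells, had 14.2, 25.8 and 102 CPM with GSK126 on days 3, 6 and 10, against 18.6, 20.2 and 28.4 CPM with vehicle (1.85, 1.76 to 1.94). Pif1, a DNA helicase, was at -0.83 on day 6 and 1.58 on day 10, and the transcript 1700066M21Rik at 0.32 and 1.58. Of the 47 genes, 6 are on the mitosis list and were below 0 on day 6. Genes that turned from lower, such as Kif11 and Cep55, are counted among the 47 as well. Of the 57 new lower genes, 18 were at least 2-fold higher on day 10 than on day 6 with vehicle (2.15% of all), and in the GSK126 culture 13 had come down 2-fold or more (2.07% of all). Both new classes are defined by the ratios, so the shares of all genes are no test of them. Enpp2 (autotaxin), which makes lysophosphatidic acid, had 46.9, 132 and 95.7 CPM with GSK126, against 24.9, 131 and 245 CPM with vehicle, with ratios of 0.91, 0.02 and -1.36. Trim11, an E3 ubiquitin ligase gene, had 31.7, 34.7 and 27.5 CPM with GSK126, against 33.9, 37.8 and 92.02 CPM with vehicle (-1.74, -1.83 to -1.65). Both genes were highest in the vehicle library of day 10. Fkbp1b, which binds calcium release channels, stood at -1.50.

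The complex that the compound targets differed little at the transcript level. Ezh2 had 74.5, 38.8 and 75.7 CPM with GSK126 on days 3, 6 and 10, against 71.2, 46.7 and 51.7 CPM with vehicle, with ratios of 0.07, -0.27 and 0.55 (day 10 interval 0.48 to 0.62). It was below 0 on day 6 and above 0 on day 10, as the replication genes were. Ezh1, the related methyltransferase, stood at -0.58 on day 10, the core subunit Suz12 at 0.36, and the accessory subunit Phf19 at 1.09 with 1.87 CPM with GSK126 and 0.868 CPM with vehicle. Among 17 PRC1 subunits 0 were past 2-fold, where 2.7% of all genes were higher and 2.18% lower. The lowest was Rybp at -0.67. Of 39 Hox genes, which are textbook Polycomb targets, 12 were measurable. On day 10, 2 of these were above 0 (background 48.9%) and 0 were past 2-fold, with a median of -0.27. Of 31 tested developmental transcription factors, 7 were above 0 on day 10 (6 when scaled by library size, background 48.9%), with a median of -0.28. Tbx2, a T-box factor, was the 1 at least 2-fold higher, a share near the background of 2.7%. It had 32.9 CPM with GSK126 and 11.5 CPM with vehicle (1.51 after 1.65 on day 6). Cdkn2a, a cell cycle inhibitor under Polycomb control in many cells, was at 0 in every one of the 6 libraries.

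Most smooth muscle markers were below 0. Of 10 tested, 9 were below 0 on day 6 (median -0.65, background 51.6%) and 8 on day 10 (median -0.32, background 51.1%). Lmod1, an actin filament nucleator of muscle, was the 1 at least 2-fold lower on day 10 (-1.04, background 2.18%). The 13 smooth muscle markers summed to 4032 CPM with GSK126 and 5049 CPM with vehicle on day 10, and Acta2, smooth muscle actin, was at -1.33 on day 6 and -0.41 on day 10. The 12 adipocyte markers summed to 14.3 CPM with GSK126 and 20.5 CPM with vehicle. The 12 neuronal markers summed to 195.0 CPM with GSK126 and 77.3 CPM with vehicle, of which Tubb3, a beta tubulin, and the adhesion molecule Ncam1 held most. Tubb3 had 13.02, 46.7 and 110.4 CPM with GSK126, against 5.82, 13.3 and 23.2 CPM with vehicle (2.25 on day 10), while Nefl and Nefm, which encode neurofilaments, had 0 counts in both day 10 libraries. The endothelial gene Vwf had 4.76 CPM with GSK126 and 2.03 CPM with vehicle, and 4 of the 8 endothelial markers had 0 counts in both day 10 libraries.

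H3K27me3 had been mapped 24 hours after the first dose, so it describes these genes long before day 10. The authors' island lists, 1 per treatment, hold 24947 islands with GSK126 (median 5600 bases) and 34498 with vehicle (median 3400 bases). The fewer islands with GSK126 covered more sequence, 166748800 bases, against 147889400 bases with vehicle. Of the 219 persisting higher genes, 60 (27.4%) had an island of the GSK126 list and 75 (34.2%) one of the vehicle list within the gene or 1000 bases of it, against 4.97% and 5.84% of all 11762 tested genes. For higher genes that were gone the shares were 16.7% with GSK126 and 15.6% with vehicle, for persisting lower genes 11.8% and 16.4%, for new higher genes 6.38% in both lists, and for new lower genes 17.5% with GSK126 and 21.1% with vehicle. Of the 75 persisting higher genes with a vehicle island, 18 (24.0%) had none in the GSK126 list. Among all tested genes this share was larger, with 266 of 687 (38.7%). With the window limited to either end of the row, the shares were 21 of 51 (41.2%) for persisting higher genes and 229 of 431 (53.1%) for all tested genes. Persisting higher genes were weakly expressed in vehicle (median 3.37 CPM on day 10, against 30.9 CPM for all tested) and their rows were longer (median 39.2 kb, against 21.998 kb). Among genes under 5 CPM in vehicle on day 10, 62 of 125 persisting higher genes (49.6%) and 258 of 1414 others (18.2%) had a vehicle island, and with the window limited to either end of the row the shares were 33.6% and 10.7%. Median row lengths there were 42.0 kb and 13.8 kb. Median vehicle levels on day 10 were 1.18 CPM and 2.38 CPM, so the split did not match the groups in level. Persisting higher genes could pass the CPM limit through their GSK126 level. The part of length or level in the difference was not tested. Among named genes, Slc36a2, Col22a1, Prex1, Pdzd2, Slc8a3 and Wif1 had islands in both lists, Adamts18 and Ostn in the vehicle list alone, and Ibsp, Bglap, Smpd3, Sp7 and Pth1r in neither.

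**Figure D5:**
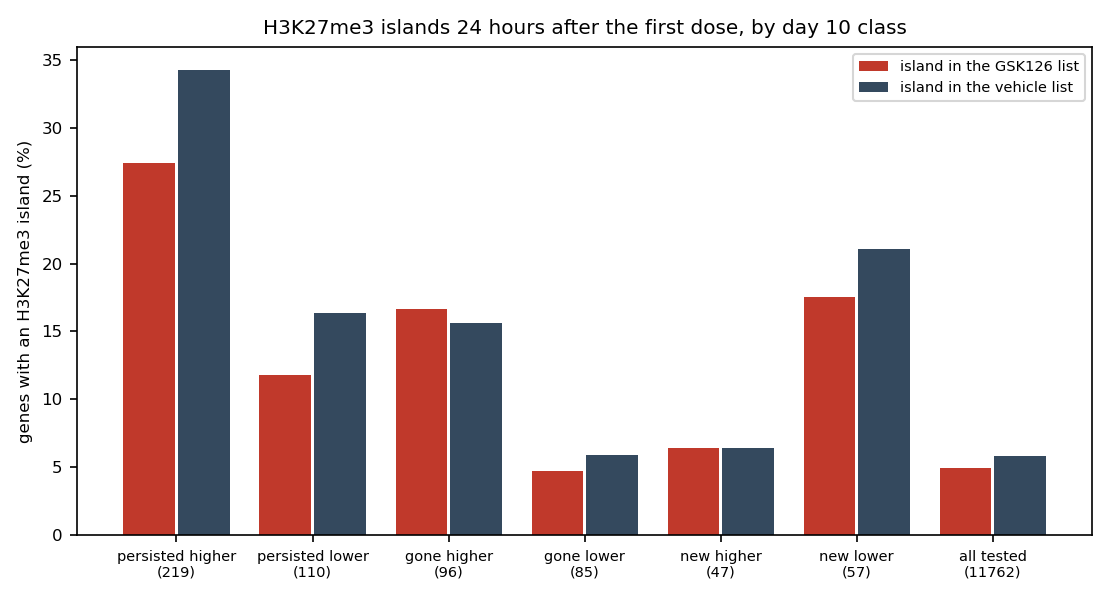
Share of genes (percent, y axis) with an H3K27me3 island within the gene or 1000 bases of it, 24 hours after the first dose, by day 10 class. Red bars are the GSK126 island list and dark bars the vehicle list. Persisting higher genes stand at 27.4% with GSK126 and 34.2% with vehicle, and all tested genes at 4.97% and 5.84%.

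A single fit over all 6 libraries, with day, treatment and a term for treatment on day 10, can set the day 10 difference against that of the other days. The labels do not tie the libraries to separate experiments. The error of the fit comes from the change of the treatment difference between days 3 and 6, so its p-values measure no replicate spread. Genes whose difference moved between those days, such as Mki67 (0.12 on day 3 and -1.28 on day 6), thus carry a larger error. By the quasi-likelihood test of edgeR, adjusted by Benjamini-Hochberg, 0 of 14344 genes passed in either direction (0.0%), with 1006 at an unadjusted p below 0.05 and a smallest adjusted p of 0.704. The fit has 1 residual degree of freedom. Limma-voom called 0 as well, with 969 at an unadjusted p below 0.05, while DESeq2 called 1 gene higher and 3 lower. The higher gene was Adam12, at 1.86 (log2, DESeq2 adjusted p = 0.00186). The lower ones were Trim11 at -1.64 (DESeq2 adjusted p = 0.000519), Enpp2 at -1.83 (DESeq2 adjusted p = 0.00186) and Tmem86a at -1.32 (DESeq2 adjusted p = 0.00904).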

How the data were processed

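RNA-seq of 6 MC3T3 libraries and H3K27me3 ChIP-seq with input (4 libraries) were analysed from the deposited tables. Per the submitters' processing notes the tools were CASAVA 1.9, TopHat2 2.0.6, HTSeq 0.5.3p9, BWA 0.5.9 and SICER 1.1 on mm10. For SICER's settings, for HTSeq's counting mode and for the gene annotation's release, the answer is not given in the sources used here. Per the labels the RNA kit was TruSeq v2, which does not mark strand, so overlapping genes cannot be separated. The deposited counts are unnormalized and all even, which fits 2 counted read ends for every fragment. RPKM values, also deposited, were divided by the authors' coding length, and were not used for differences. The deposited island lists give read counts, p-values and a ratio of ChIP to input per island, of which only positions were used. No per-sample column was left unmapped.

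From the counts, CPM were scaled by TMM over the 6 libraries (edgeR 4.0.16), log2 ratios used a prior count of 2, and intervals are exact binomial on fragments. Of 23358 rows, 4893 were at 0 in all 6 libraries and 69 share a name with another row. The day 10 term was tested by edgeR's quasi-likelihood fit after day, treatment and treatment on day 10, and was repeated with DESeq2 1.42.0 and limma 3.58.1. It was also run on simulated counts without other differences between libraries, a simpler setting than the data. There it recovered 19% of 2-fold and 80% of 4-fold changes. Islands were assigned to the count table's rows widened by 1000 bases. Promoters came from RefSeq (GRCm38.p6), where 17186 of 23289 rows with a unique name had a start site, and motif shares are given only for lists of which at least 80% had a promoter.

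Named genes follow a rule: the 15 largest ratios each way on day 10 at 5 CPM or more, the 6 largest per class, up to 5 per gene list, and a fixed set of bone and Polycomb genes; others are said to be picked. Further members of the lists are given where their level completes a description. The members and lists were chosen with earlier results of these data known. Other scalings, prior counts, filters and class limits were tried as alternatives. Results on a few genes are not reported here.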

Additional observations from a re-analysis of the deposited data

Results flagged for a closer look

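The mitosis, DNA replication and cholesterol synthesis genes drew attention because at least 80% of their tested members had ratios of opposite sign on days 6 and 10. Their median log2 ratios of GSK126 to vehicle on day 10 were 0.86 for mitosis, 0.65 for DNA replication and 0.26 for cholesterol synthesis, where the day 6 medians had been -0.99, -0.53 and -0.47. The difference between the days was not tested for these lists. The error of the fit over 6 libraries comes from the change of the difference between days 3 and 6, where these lists moved. Gene by gene, edgeR's quasi-likelihood test of the day 10 term called 0 of all 14344 genes after adjustment, with 1006 at an unadjusted p below 0.05, while limma-voom called 0 and DESeq2 1 higher and 3 lower. Other gene lists had fewer members of opposite sign on the 2 days.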

How the results depend on the processing

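Of 101 alternative counts, 75 stayed within 1.5 times the reported count, 15 were smaller and 11 were larger. Scaling by library size left 4 genes turned from lower (10 reported). With a mean of at least 5 CPM the day 10 counts were 198 higher and 142 lower, with 130 and 72 persisting, 48 gone among higher genes and 20 new lower. With no filter beyond 1 count they were 1650 and 1435, with 754 and 365 persisting, 895 and 580 gone, 147 turned from lower and 548 and 742 new, where rows with few fragments enter. Requiring the counting interval to lie wholly past 2-fold left 135 lower genes. A limit of 0.25 (log2) for absent differences left 31 new higher and 30 new lower genes. Set against day 3 instead of day 6, 117 and 8 persisted, 42 and 3 were gone and 0 had turned from lower. For the day 10 term, DESeq2 called 1 higher and 3 lower genes where edgeR called 0, with 6118 adjusted p-values not given by DESeq2. Where no construction of the setting shows the cause, the cause was not tested.

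Among 205 named genes, 1193 ratios under other scalings and prior counts stayed within the counting interval, 37 left it and 0 of those called reversed. For a called gene, a reversal would have taken a shift of at least 1 (log2). The largest shift of a named gene's ratio with another scaling was 0.119 (log2), and no list median changed sign. Pairing by replicate was not possible because each treatment and day has 1 library and the labels carry no replicate numbers. For the same reason leaving out a replicate was not possible. Day, the 1 thing that treated and vehicle libraries share, is already a term of the fit over the 6 libraries. Depth limits genes with few fragments, such as Col9a1, whose day 10 interval ran between 4.38 and 8.24 (log2).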
